A study of Homo sapiens with 8 samples.

Results

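Melphalan combined with inhibitors of miR-221 and miR-222 was compared with melphalan alone in U266/LR7 and U266/s, human multiple myeloma lines that the series design calls melphalan-resistant and parental. The comparison took every array with melphalan, 4 of the 8 in the series: 2 combination arrays against 2 melphalan arrays, paired by line, with 1 array per condition and line. All 4 cultures received 100 µM melphalan. The combination cultures also received inhibitors of both microRNAs at 100 nM by transfection, and RNA was collected at 12 h. By the sample tags the melphalan-alone cultures had no transfection, whereas the growth protocol names a negative control among the transfected cultures. Transfection itself and the inhibitors therefore cannot be told apart in this contrast. The other 4 arrays had no melphalan and carried either the inhibitors or the negative control. Both lines derive from U266, and nothing in the labels gives separate cultures of a condition, so each p-value measures how far the 2 lines disagreed, together with the spread pooled over genes.

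Melphalan is a nitrogen mustard that alkylates DNA and forms crosslinks between its strands. MicroRNAs lower the output of messenger RNAs by guiding an Argonaute protein to sites that pair with their seed, the bases near the 5′ end. miR-221 and miR-222 are made from neighbouring genes on the X chromosome and are known as repressors of the cell cycle inhibitor p27 (CDKN1B) and of the cell death gene BBC3 (PUMA) in myeloma and other cancers. An inhibitor oligonucleotide pairs with a mature microRNA and blocks it, so its expected mark is a rise of the targets rather than a fall of the microRNA gene's transcript.

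The inhibited mature strands of the pair share their seed. They are given 5′ to 3′ from RefSeq on GRCh38.p14, with the seed (bases 2 to 8) in capitals, beside those of the 3 microRNA genes that passed the test in this comparison.
hsa-miR-221-3p: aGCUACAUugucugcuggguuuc
hsa-miR-222-3p: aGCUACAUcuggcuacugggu
hsa-miR-21-5p: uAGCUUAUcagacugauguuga
hsa-miR-24-3p: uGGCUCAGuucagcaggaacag
hsa-miR-101-3p: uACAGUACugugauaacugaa
The inhibited strands lie at chrX:45746180-45746202 and chrX:45747036-45747056, both on the minus strand. They have identical bases over positions 1 to 8 and are 23 and 21 bases long. The seed GCUACAU was carried by 2 of the 2370 mature human strands listed, namely these 2. The other 3 strands lie at chr17:59841273-59841294 on the plus strand (miR-21), chr19:13836289-13836310 on the minus strand (miR-24) and chr9:4850345-4850365 on the plus strand (miR-101), and none of them holds the inhibited seed.

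With the inhibitors added to melphalan, the small nucleolar RNA SNORD51, the receptor SLAMF7, the membrane protein EVI2B, the spliceosomal RNA RNU4ATAC and the microRNA gene MIR21 rose in both lines. The caspase-8 regulator CFLAR and the matrix peroxidase PXDN fell in both. Of 18417 genes tested, 103 passed an adjusted p of 0.05 (limma with line as a block and Benjamini-Hochberg adjustment), or 0.559%. They were 65 higher (0.353%) and 38 lower (0.206%), and 1580 genes had an unadjusted p under 0.05. Differences below are on the log2 scale of the RMA signal, combination minus melphalan alone, with the standard error of the fit. The mean of 2 line differences had a median SE of 0.148.

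The count of called genes leaned on the pooled spread. The fit left 1 residual degree of freedom per gene and borrowed 42.3 from the other genes, and an exact permutation of the 2 pairs cannot give a p below 0.5. In the fit to all 8 arrays, 1 gene passed (SNORD51, or 0.00543%) with 892 at an unadjusted p under 0.05, without the line block 0 passed with 40 at an unadjusted p under 0.05, and with each array centred on its median 20 passed. Under all 3 other scalings (median centring, repeated quantile normalization and cyclic loess) 18 of the 103 remained called: SNORD51, SLAMF7, EVI2B, RNU4ATAC, CNTN6, SNORA2A, LY96, SLC7A8, CCL5, CD86, SNORA50A, VAV3, HIF1A, CHI3L1, CRLF2 and CD44 higher, and OR2J3 and PXDN lower. The other called genes, USP18, MIR21, CFLAR and TP53INP1 among them, lost the call under at least 1 of these scalings.

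**Figure D1:**
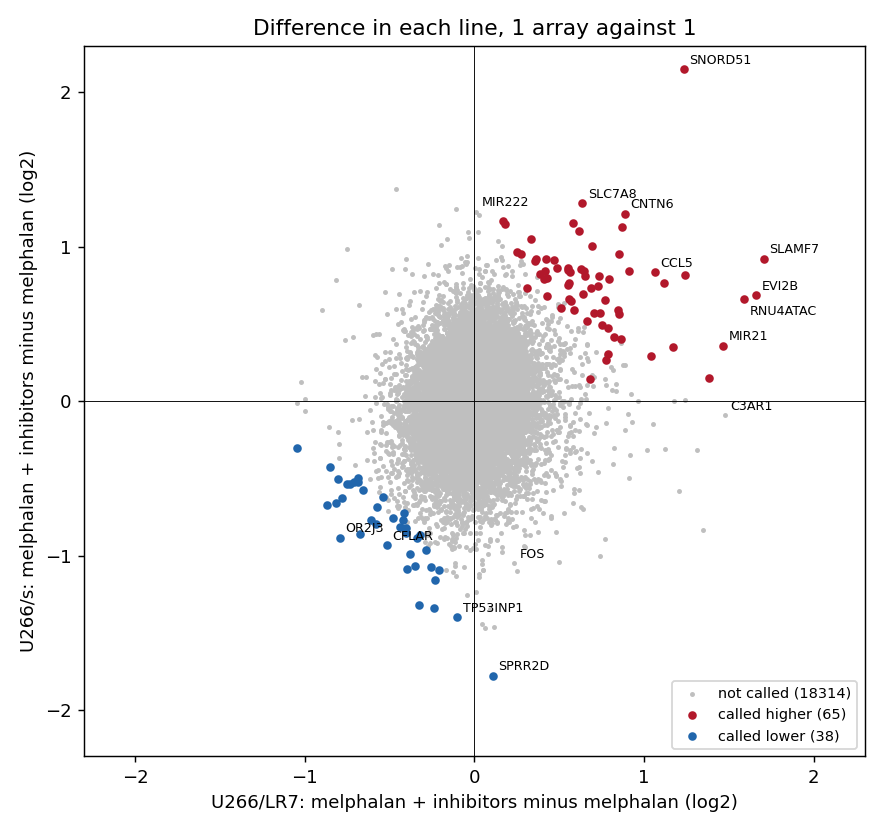
Difference between melphalan plus inhibitors and melphalan alone for each gene, in U266/LR7 (x axis) and U266/s (y axis), log2, 1 array against 1 in each line. Red points are the 65 genes called higher and blue points the 38 called lower. Most called genes lie in the upper right and lower left, SPRR2D lies across the vertical line, and MIR222 was high in U266/s alone.

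Across all genes the lines shared little of the response. The differences of U266/LR7 and U266/s correlated over genes with r = 0.135, and 54.1% of genes had the same sign in both. Genes are not independent replicates, and the arrays were normalized together. Among the genes above the median signal r was 0.199. The differences spread more widely in U266/s (SD 0.283) than in U266/LR7 (SD 0.183). In U266/LR7 20 genes were higher by more than 1 log2 unit (0.109%) and 5 lower (0.0271%), against 22 higher (0.119%) and 31 lower (0.168%) in U266/s. The U266/s pair also had the narrower signal distributions: the interquartile range over all array features was 3.25 (melphalan) and 3.34 (combination), against 3.58 to 3.71 on the other 6 arrays. The part of this spread in the called genes was not tested.

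The arrays carried the markers of the labelled cell type. Of 21 plasma cell genes, 13 were above the upper quartile of signal on all 4 arrays, whereas 0 of the B cell, T and NK cell, myeloid, or stromal and epithelial markers were. Summed on the linear scale, the plasma cell genes reached 36000 to 39200 with melphalan alone and 36600 to 37300 with the combination. The 15 myeloid markers summed to 1660 to 3050 and 1930 to 3200. The 14 T and NK cell markers summed to 1140 to 1560 and 1180 to 1670, and the 11 B cell markers to 1170 to 1500 and 1120 to 1550. The ranges of the 2 treatments overlapped in each list.

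The genes of the inhibited microRNAs came first, as a description that cannot check the labels. The array reads the transcript of the microRNA gene and not the mature strand that the inhibitor binds. The MIR222 signal was 4.35 with melphalan and 4.36 with the combination in U266/LR7, and 4.73 and 5.96 in U266/s. Its mean difference was 0.62 ± 0.18 (SE, adjusted p = 0.106), all of it from U266/s, where the difference was 1.23. The same line had a MIR222 difference of 2.17 on its arrays without melphalan (4.03 with the negative control and 6.20 with the inhibitors), and U266/LR7 had -0.21. Over all 8 arrays the inhibitor difference of MIR222 differed between the lines by -1.80 ± 0.29 (U266/LR7 minus U266/s), with an adjusted p of 0.348. For MIR221 the signals were 5.01 and 5.17 in U266/LR7 and 4.69 and 5.28 in U266/s, a mean difference of 0.38 ± 0.15 (adjusted p = 0.394). Neither microRNA gene passed the test.

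The reported targets of miR-221 and miR-222 lay close to all genes. Of 45 measured, 1 was called higher (USP18, or 2.22%, against 0.353% of all genes) and 0 lower (against 0.206%). In both lines 12 were higher (26.7%, against 26.8% of all genes) and 14 lower (31.1%, against 27.3%). Their median difference was 0.00, with -0.05 in U266/LR7 and 0.03 in U266/s, and the overall median changed sign to between -0.012 and -0.002 under the other 3 scalings.

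**Figure D2:**
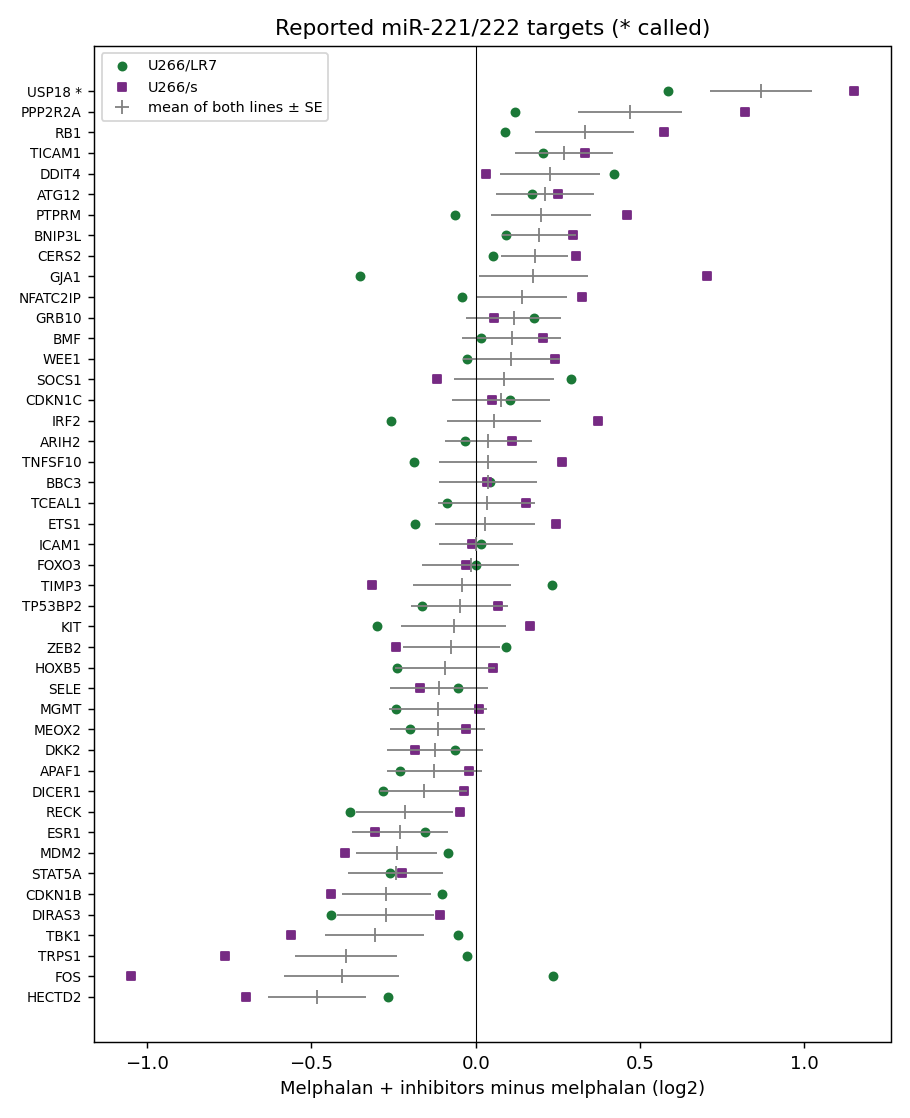
Difference between melphalan plus inhibitors and melphalan alone (x axis, log2) for the 45 measured reported targets of miR-221 and miR-222 (y axis), with U266/LR7 as circles, U266/s as squares, and the mean of both lines ± SE in grey. Only the starred USP18 passed the test, and the rest scatter on both sides of 0.

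CDKN1B, the p27 gene and the best known target, was 10.14 with melphalan and 10.04 with the combination in U266/LR7, and 10.57 and 10.14 in U266/s. It was lower in both lines, by -0.10 and -0.44, and the mean of -0.27 ± 0.14 did not pass (adjusted p = 0.591). CDKN1C, the related p57 inhibitor, differed by 0.08 ± 0.15. The cell death genes BBC3 and BMF differed by 0.04 ± 0.15 and 0.11 ± 0.15. CDKN1A, the p21 gene that p53 induces, was 0.66 higher in U266/LR7 and 0.01 higher in U266/s (adjusted p = 0.531). PPP2R2A, another target, was not called at 0.47 ± 0.16, so a change of that size in targets of similar SE was not detectable here.

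Other well known targets did not pass either. KIT, a receptor tyrosine kinase, had a low signal between 4.03 and 4.54 and differed by -0.07. TIMP3, a metalloproteinase inhibitor, differed by -0.04, with 0.23 in U266/LR7 and -0.32 in U266/s. FOXO3, a transcription factor of the PI3K pathway, differed by -0.01, and ESR1, the estrogen receptor, by -0.23. DICER1, which cuts microRNA precursors, differed by -0.16. FOS, the partner of JUN in the AP-1 factor, differed in sign between the lines, with 0.24 in U266/LR7 and -1.05 in U266/s. The widest target differences after USP18 were those of HECTD2 (-0.48, adjusted p = 0.160), a ubiquitin ligase gene, and PPP2R2A (0.47, adjusted p = 0.236), a regulatory subunit of protein phosphatase 2A.

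USP18 removes the ubiquitin-like ISG15 from proteins and damps signalling from the interferon receptor. Its signal was 8.04 with melphalan and 8.62 with the combination in U266/LR7, and 6.42 and 7.57 in U266/s. The lines differed more from each other than the treatments did, and each line rose. The mean rise was 0.87 ± 0.15 (adjusted p = 0.00142). On the arrays without melphalan the USP18 differences were -0.04 and 0.38.

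SLAMF7, a receptor of plasma cells and natural killer cells that is the target of the myeloma antibody elotuzumab, was 8.83 with melphalan and 10.54 with the combination in U266/LR7, and 6.18 and 7.10 in U266/s. Both lines rose, by 1.70 and 0.92, and the combination value of U266/s was below the melphalan value of U266/LR7. The mean rise was 1.31 ± 0.16 (adjusted p = 2.4e-06), the largest of a protein-coding gene. It was the 1 called of 21 plasma cell genes (4.76%, against 0.353% of all genes called higher). Of these 9 were lower in both lines (42.9%, against 27.3% of all genes) and 3 higher (14.3%, against 26.8%), with a median of -0.06. TNFRSF17, the receptor BCMA, differed by -0.35 and CD38, an ectoenzyme and antibody target, by -0.45, and neither passed.

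EVI2B, a membrane protein of blood cells, went from 5.12 to 6.79 in U266/LR7 and from 5.74 to 6.43 in U266/s. Here both combination values lay above both melphalan values, and the mean rise was 1.17 ± 0.16 (adjusted p = 2.6e-05). CD86, the co-stimulatory ligand of CD28, had signals of 5.74 and 6.86 in U266/LR7 and 5.37 and 6.13 in U266/s, again without overlap of the treatments. Its mean rise was 0.94 ± 0.15 (adjusted p = 0.000156). LY96, or MD-2, which lets Toll-like receptor 4 bind lipopolysaccharide, rose from 8.70 to 9.57 and from 6.91 to 8.04, by 0.997 ± 0.15 on average.

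CNTN6, an adhesion protein best known from neurons, rose from 9.07 to 9.96 in U266/LR7 and from 7.78 to 8.998 in U266/s, by 1.05 ± 0.15 on average. SLC7A8, the light chain of an amino acid exchanger, went from 9.34 to 9.98 and from 7.61 to 8.89. Among 21 genes of drug and amino acid transport it was the 1 called (4.76%, against 0.353% of all genes called higher). Its mean rise was 0.96 ± 0.16 (adjusted p = 0.000302). In both genes the rise was larger in U266/s, where the levels were lower.

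CCL5, a chemokine that draws T cells and monocytes, was 9.63 with melphalan and 10.69 with the combination in U266/LR7, and 9.17 and 10.005 in U266/s. Both combination values were above both melphalan values. The mean rise was 0.95 ± 0.14 (adjusted p = 6.5e-05). CCL5 was the 1 called gene of 25 NF-kB targets (4%, against 0.353% of all genes called higher). Of these targets 10 were higher in both lines (40%, against 26.8% of all genes) and 5 lower (20%, against 27.3%).

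**Figure D3:**
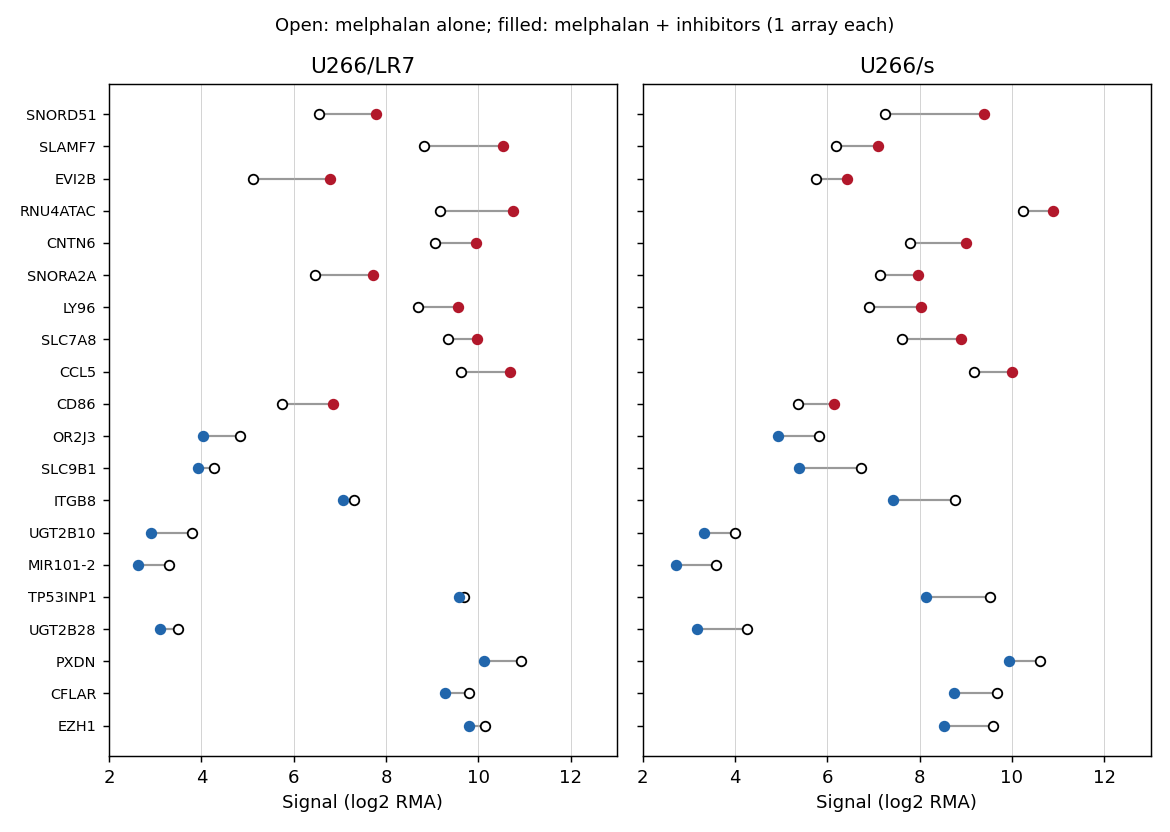
Signal (x axis, log2 RMA) of the 10 genes with the largest mean rises and the 10 with the largest mean falls of the same direction in both lines (y axis), U266/LR7 at left and U266/s at right. Open circles are melphalan alone and filled circles melphalan plus inhibitors, 1 array each, red for rises and blue for falls. OR2J3, UGT2B10, UGT2B28 and MIR101-2 lie under 6 on every array, whereas SLAMF7 in U266/LR7 and CFLAR move at high signal.

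The called rises also held other receptors. The cytokine receptor genes IL2RB (interleukin-2 receptor beta) and CRLF2 (the receptor of thymic stromal lymphopoietin) rose by 0.71 ± 0.15 and 0.74 ± 0.14. CD44, the hyaluronan receptor, rose from 12.18 to 12.69 in U266/LR7 and from 11.51 to 12.11 in U266/s, a small and even change at a high signal (0.56 ± 0.10, adjusted p = 0.00267). TFRC, the transferrin receptor, rose by 0.55 ± 0.13. CCR1, a receptor of CCL5, rose by 0.76 ± 0.16 (adjusted p = 0.0102), with 1.17 in U266/LR7 and 0.35 in U266/s. FCER1G, the signalling gamma chain of Fc receptors, rose by 0.72 ± 0.15. It was the 1 called of the 15 myeloid markers (6.67%, against 0.353% of all genes called higher). The other genes of that list were not called, and the part of other cells in this rise was not tested.

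Signalling and secreted proteins were called as well. VAV3, a guanine nucleotide exchange factor, went from 6.04 to 6.95 in U266/LR7 and from 6.45 to 7.29 in U266/s (0.88 ± 0.14). ARHGAP18, a GTPase-activating protein gene, rose by 0.86 ± 0.15. HIF1A, the oxygen-regulated transcription factor, was 10.22 and 10.91 in U266/LR7 and 8.10 and 9.10 in U266/s, and its mean rise was 0.85 ± 0.14 (adjusted p = 0.000688). CHI3L1, a secreted chitinase-like glycoprotein, rose from 11.45 to 12.10 and from 11.04 to 11.89 (0.74 ± 0.11). TIMP1, an inhibitor of metalloproteinases, and S100A4, a calcium-binding protein, rose by 0.71 ± 0.14 and 0.70 ± 0.15.

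Of 44 genes that interferon is known to induce, 1 was called (USP18, or 2.27%, against 0.353% of all genes called higher). In both lines 18 were higher (40.9%, against 26.8% of all genes) and 9 lower (20.5%, against 27.3%). The largest uncalled differences were those of PARP9 (0.50), XAF1 (0.47) and HERC6 (0.47), while IFIT3 was lower (-0.45). DTX3L, the ubiquitin ligase partner of PARP9, rose from 7.82 to 8.61 in U266/LR7 and from 7.67 to 8.46 in U266/s (0.79 ± 0.15, adjusted p = 0.00304). PARP12, an ADP-ribosyltransferase, rose from 7.41 to 8.05 and from 8.61 to 9.30 (0.67 ± 0.15, adjusted p = 0.0206). IFI16, a sensor of DNA, rose by 0.69 ± 0.15. These 3 were not on the list and were chosen after their values were seen.

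DTX3L and PARP12, chosen after their values were seen, are shown at their starts. Both promoters hold the core of the interferon-stimulated response element. It is read as GAAA, any 2 bases and GAAA on one strand or TTTC, any 2 bases and TTTC on the other. Each run is 300 bases of RefSeq sequence on GRCh38.p14, from 250 before to 50 after the annotated start, in the direction of the gene, with the match in capitals. DTX3L is at chr3:122564088-122564387 (plus strand), where the match begins 6 bases before the start, and PARP12 at chr7:140062902-140063201 (minus strand), where it begins 10 bases before.
DTX3L: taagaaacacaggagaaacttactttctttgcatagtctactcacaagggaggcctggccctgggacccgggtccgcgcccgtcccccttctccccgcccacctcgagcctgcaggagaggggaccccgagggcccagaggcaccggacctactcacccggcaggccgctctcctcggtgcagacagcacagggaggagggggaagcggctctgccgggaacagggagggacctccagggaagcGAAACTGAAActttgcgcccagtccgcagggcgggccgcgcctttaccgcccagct
PARP12: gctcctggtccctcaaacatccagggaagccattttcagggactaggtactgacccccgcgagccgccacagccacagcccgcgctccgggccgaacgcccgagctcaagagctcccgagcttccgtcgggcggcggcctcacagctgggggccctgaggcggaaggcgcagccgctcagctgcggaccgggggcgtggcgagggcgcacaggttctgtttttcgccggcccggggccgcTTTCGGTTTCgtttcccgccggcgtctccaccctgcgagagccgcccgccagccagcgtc
The core was in 4 of the 37 called rises that had a promoter entry (10.8%), in 1 of 31 called falls (3.23%), in 25 of 36 interferon-list genes (69.4%) and in 587 of all 14239 promoters of genes tested (4.12%). The called genes not shown that hold the core were the rises NFIB (0.70) and GPC6 (0.67) and the fall TMEM140 (-0.62). A match describes the letters and is no measure of binding.

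Small RNA genes made up 15 of the 65 rises and 1 of the 38 falls, against 379 of all 18417 genes tested. SNORD51, a C/D box small nucleolar RNA, which guides the methylation of ribosomal RNA, was 6.55 with melphalan and 7.78 with the combination in U266/LR7, and 7.25 and 9.40 in U266/s. Both combination values lay above both melphalan values. Its mean rise of 1.69 ± 0.16 (adjusted p = 5.3e-09) was the widest of all genes.

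RNU4ATAC, a small nuclear RNA of the minor spliceosome, was 9.16 and 10.75 in U266/LR7 and 10.23 and 10.89 in U266/s, a mean rise of 1.13 ± 0.15 (adjusted p = 1.8e-05). SNORA2A and SNORA50A, of the H/ACA box class that guides pseudouridine formation, rose by 1.03 ± 0.15 and 0.90 ± 0.15. SNORA2A went from 6.47 to 7.71 and from 7.14 to 7.96, and SNORA50A from 9.46 to 10.31 and from 8.07 to 9.02.

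The medians of the small RNA classes had opposite signs in the 2 lines. In U266/LR7 the median difference was 0.60 over 23 small nuclear RNAs, 0.23 over 115 C/D box RNAs and 0.23 over 77 H/ACA box and Cajal body RNAs. In U266/s the same medians were -0.10, -0.04 and -0.11. The called members were 2 of 23, 6 of 115 and 5 of 77, all higher, or 8.7%, 5.22% and 6.49%, against 0.353% of all genes. Of the small nuclear RNAs 9 were higher in both lines (39.1%, against 26.8% of all genes) and 0 lower, and of the C/D box RNAs 38 were higher (33%) and 19 lower (16.5%). Of the H/ACA box and Cajal body RNAs 24 were higher (31.2%) and 12 lower (15.6%). Some U4, U5 and U11 genes, chosen after their values were seen, differed in sign between the lines: RNU4-1 was 0.63 higher in U266/LR7 and 0.69 lower in U266/s, RNU5B-1 0.51 higher and 0.55 lower, and RNU11 0.82 higher and 0.41 lower.

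Most small nucleolar RNAs are cut from introns of host genes, so the genes that span the called small RNA genes were read too. They were found by position on either strand. The set also held small nuclear RNA and microRNA genes, so a spanning gene need not be a host. Of the 16 called small RNA genes, 10 lay within a measured gene on the RefSeq map. Of those 10 spanning genes 0 were called by limma, with differences from -0.27 to 0.23. Over all genes 0.559% were called, so this count does not set the spanning genes apart. EEF1B2, which spans SNORD51, differed by -0.20, and CLASP1, which spans RNU4ATAC, by -0.23. KANSL2, around SNORA2A, differed by 0.07.

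MIR21, the gene of a microRNA known for high levels in many tumours, had a signal of 6.24 with melphalan and 7.71 with the combination in U266/LR7, and 5.69 and 6.05 in U266/s. U266/LR7 rose by 1.46 and U266/s by 0.36, and the mean of 0.91 ± 0.17 passed (adjusted p = 0.00201). VMP1, the overlapping gene, differed by 0.17. MIR24-2 rose by 0.64 ± 0.15 (adjusted p = 0.0339), from 4.51 to 5.22 in U266/LR7 and from 4.10 to 4.67 in U266/s. Its signal was below the lower quartile of gene signal on every melphalan array. MIR101-2 fell from 3.30 to 2.63 and from 3.59 to 2.73, at signals among the lowest on the arrays. Over the 189 microRNA genes measured, 2 were called higher (1.06%, against 0.353% of all genes) and 1 lower (0.529%, against 0.206%).

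Among the falls, CFLAR encodes c-FLIP, which keeps death receptors from activating caspase-8. Its signal was 9.80 with melphalan and 9.28 with the combination in U266/LR7, and 9.68 and 8.75 in U266/s, and both combination values lay below both melphalan values. The mean difference was -0.72 ± 0.15 (adjusted p = 0.00884). It was the 1 called of 12 death receptor genes (8.33%, against 0.206% of all genes called lower). Of these 5 were lower in both lines (41.7%, against 27.3% of all genes) and 1 higher (8.33%, against 26.8%).

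TP53INP1, a p53-induced gene of cell death and autophagy, hardly differed in U266/LR7 (9.69 and 9.59) and went from 9.53 to 8.13 in U266/s. The mean of -0.75 ± 0.18 passed (adjusted p = 0.0306) and rested on U266/s. Of 30 p53 targets it was the 1 called (3.33%, against 0.206% of all genes called lower). In both lines 10 were higher (33.3%, against 26.8% of all genes) and 8 lower (26.7%, against 27.3%).

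PXDN, a peroxidase that crosslinks collagen in basement membranes, fell in both lines alike, from 10.93 to 10.12 and from 10.60 to 9.94 (-0.74 ± 0.13, adjusted p = 0.00161). EZH1, a histone H3 lysine 27 methyltransferase, fell from 10.14 to 9.79 and from 9.59 to 8.53 (-0.71 ± 0.15). ITGB8, an integrin beta chain, fell from 7.31 to 7.07 in U266/LR7 and from 8.76 to 7.42 in U266/s (-0.79 ± 0.17). CENPF, a kinetochore protein, differed by -0.26 in U266/LR7 and -1.07 in U266/s (mean -0.67 ± 0.16), so most of its fall came from U266/s. It was the 1 called of 35 genes of G2/M and mitosis (2.86%, against 0.206% of all genes called lower). AQP3, a water and glycerol channel, fell from 11.11 to 10.37 and from 10.72 to 10.18, and CTSH, a lysosomal protease, from 12.31 to 11.91 and from 10.49 to 9.64.

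Some falls were at low signal. OR2J3, an olfactory receptor gene, went from 4.84 to 4.05 and from 5.83 to 4.94 (-0.84 ± 0.15, adjusted p = 0.00155). UGT2B10 and UGT2B28, of a family of glucuronosyltransferases with similar sequences, differed by -0.77 and -0.74 at signals between 2.92 and 4.26. SLC9B1, a sodium and proton exchanger, differed by -0.83. Of the 38 falls, 10 lay below the lower quartile of gene signal on all 4 arrays (26.3%), as did 5 of the 65 rises (7.69%) and 20.4% of all genes, so the share among the falls was near that of all genes.

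The same inhibitors without melphalan gave values from arrays that the main comparison did not use. There the reference was the negative control oligonucleotide. Of the 65 rises, 47 were also higher in U266/LR7 (72.3%, against 49.1% of all genes) and 37 in U266/s (56.9%, against 53.1%). The 46 protein-coding rises held this pattern more clearly in U266/LR7, where 39 were higher (84.8%, against 49.9% of protein-coding genes) with a median of 0.67. In U266/s 26 of them were higher (56.5%, against 52.3%) with a median of 0.05. The 15 small RNA rises did not have this order: 7 were higher in U266/LR7 (46.7%, against 33.2% of small RNA genes) and 9 in U266/s (60%, against 47.2%).

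Of the 38 falls, 34 were also lower in U266/s (89.5%, against 46.8% of all genes) and 20 in U266/LR7 (52.6%, against 50.8%). Their median without melphalan was -0.37 in U266/s and 0.00 in U266/LR7. The difference between the lines in these shares was not tested.

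**Figure D4:**
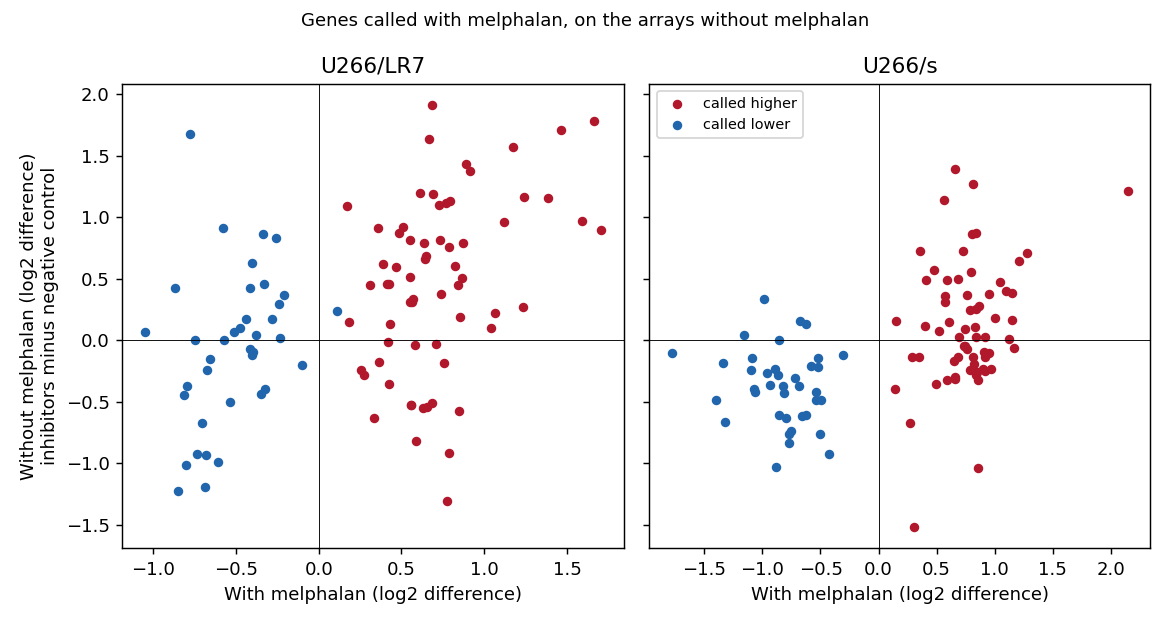
Differences of the 103 called genes with melphalan (x axis, combination minus melphalan alone, log2) against the same genes without melphalan (y axis, inhibitors minus negative control, log2), U266/LR7 at left and U266/s at right, 1 point per gene. Red genes called higher lie mostly above 0 in U266/LR7 (47 of 65), and blue genes called lower lie mostly below 0 in U266/s (34 of 38).

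Single genes varied. EVI2B was higher without melphalan by 1.78 in U266/LR7 and 0.49 in U266/s, CNTN6 by 1.43 and 0.65, and MIR21 by 1.71 and 0.72. VAV3 was higher by 1.37 in U266/LR7 and 0.03 in U266/s, HIF1A by 1.19 and 0.18, and DTX3L by 1.13 with -0.24 in U266/s. SLAMF7 was higher by 0.89 in U266/LR7 and lower in U266/s (-0.25). CCL5 differed by 0.22 and 0.11, and CFLAR by 0.07 and -0.36.

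In the fit to all 8 arrays the inhibitors without melphalan called 6 genes higher (0.0326%) and 14 lower (0.076%). IL2RB, RNU4ATAC and SNORA2A were higher there and among the 65 rises with melphalan. SNORA2A rose by 1.22 ± 0.17 (adjusted p = 0.00944) without melphalan, RNU4ATAC by 1.18 ± 0.20 and IL2RB by 1.32 ± 0.22. AMPD1, a muscle-type AMP deaminase gene, and ROPN1L, a sperm flagellum protein gene, fell in both comparisons, with differences of -1.07 and -0.91 without melphalan and -0.64 and -0.69 with it.

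The inhibitor difference with melphalan was then set against that without it, as an interaction term over the 8 arrays. It passed for 4 genes (0.0217%), all of them small nucleolar RNAs: SNORD116-1, SNORA22, SNORD116-18 and SNORD45A. The signal of SNORD116-18 was 2.84 to 4.72 over the 8 arrays, below the lower quartile of gene signal on each. SNORD116-1 was lower without melphalan by -1.50 ± 0.17 and differed by 0.48 with it, a gap of 1.98 ± 0.24 (adjusted p = 0.00683). For SNORA22 the differences were -1.22 and 0.55 (gap 1.76 ± 0.24, adjusted p = 0.0148). The SNORD116 genes are near-identical copies of the Prader-Willi region on chromosome 15, so signals of the copies cannot be separated with certainty. These calls moved with the processing: under cyclic loess 0 genes passed, with 611 at an unadjusted p under 0.05. Without 1 array the count was 15 (either U266/s melphalan array), 17 (either U266/LR7 array without melphalan), 26 (either U266/LR7 melphalan array), 213 (the U266/s negative control) or 215 (the U266/s inhibitor array). Of the 4, SNORA22, SNORD116-18 and SNORD45A were called rises with melphalan. Over the 115 C/D box RNAs the median without melphalan was -0.40 in U266/LR7 and -0.20 in U266/s.

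No gene passed for a difference between the lines. In the 8-array fit with a line by inhibitor term, chosen after seeing the data, limma called 0 genes, with 1006 at an unadjusted p under 0.05 and a smallest adjusted p of 0.348. Single genes were far apart on the melphalan arrays all the same. C3AR1, a complement receptor, differed by 1.48 in U266/LR7 and -0.09 in U266/s. SPRR2D, a cornified envelope protein, differed by 0.11 in U266/LR7 and -1.78 in U266/s, and its call as a fall rests on U266/s alone.

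Some other lists also had medians of opposite sign in the 2 lines. Of 27 immediate early genes 0 were called (against 0.559% of all genes), with medians of 0.12 in U266/LR7 and -0.25 in U266/s. The widest mean differences were those of KLF4 (-0.58), KLF6 (-0.48), FOS and JUN (-0.32). The 56 replication histone genes had medians of 0.18 and -0.22. Of them H2AC12 was called higher at 0.67 ± 0.15 (1.79% of the list, against 0.353% of all genes). The 13 metallothioneins, which bind zinc, had medians of 0.35 and -0.03, and 0 were called, against 0.559% of all genes.

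**Figure D5:**
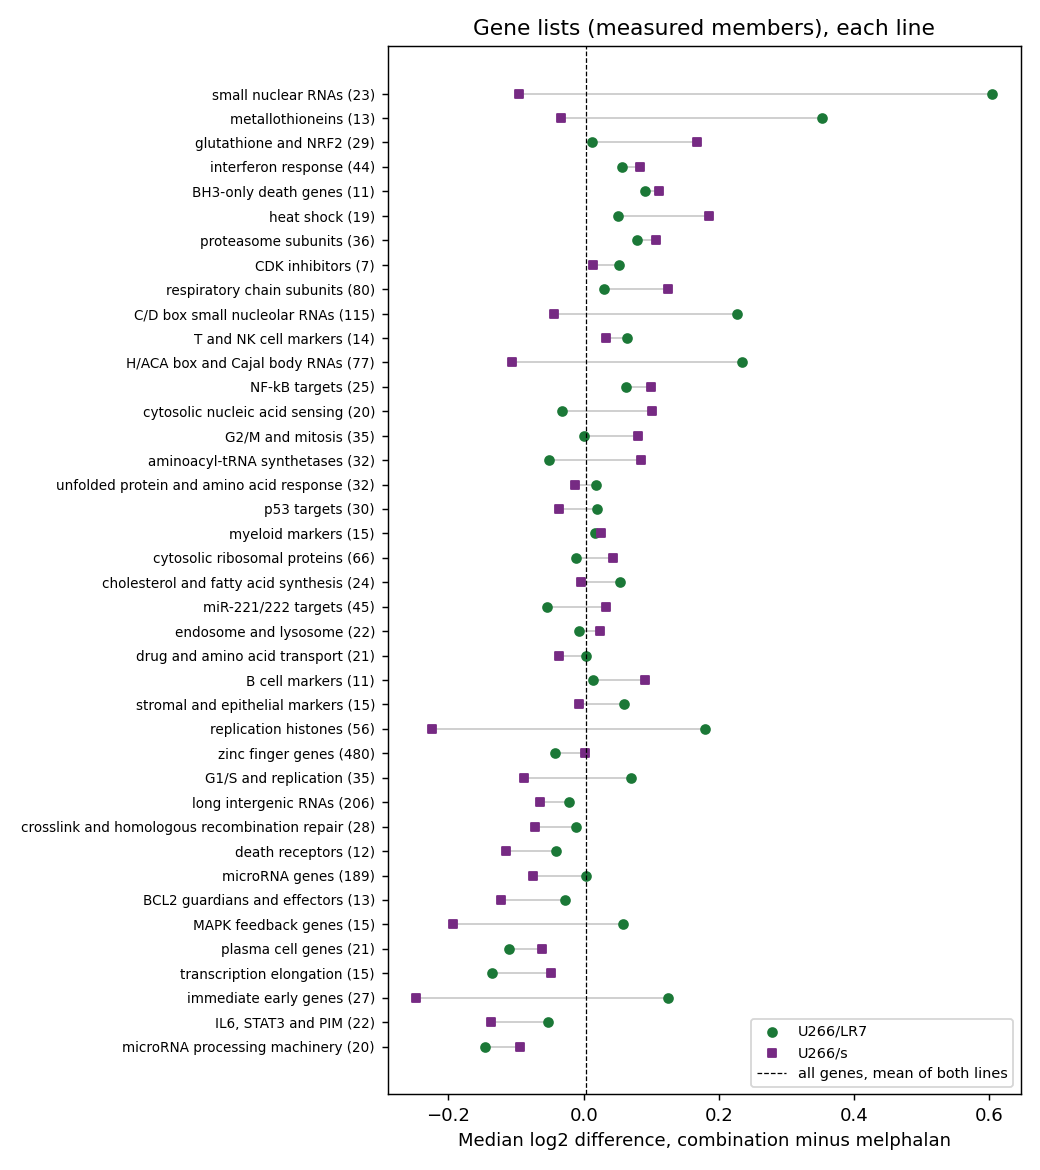
Median difference over the measured members (x axis, log2, melphalan plus inhibitors minus melphalan alone) of each of 40 gene lists (y axis, number of members in brackets), U266/LR7 as circles and U266/s as squares. The dashed line is the median of all genes. Small nuclear RNAs, metallothioneins, both small nucleolar RNA classes, histones and immediate early genes are the lists whose lines lie farthest apart.

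A few lists leaned one way in both lines without a called gene. Of 80 subunits of the respiratory chain, 43 were higher in both lines (53.8%, against 26.8% of all genes) and 5 lower (6.25%, against 27.3%), with a median of 0.07. Of 36 proteasome subunits, 21 were higher in both (58.3%) and 2 lower (5.56%), with a median of 0.08. Of 19 heat shock genes, 10 were higher in both (52.6%) and 1 lower (5.26%). Cyclic loess left smaller leans, with 32 respiratory chain genes higher in both lines and 14 lower (median 0.03), 14 proteasome genes higher and 2 lower (median 0.02), and 7 heat shock genes higher and 2 lower. Of 11 BH3-only cell death genes, 7 were higher in both (63.6%) and 1 lower (9.09%). Without melphalan the medians in U266/LR7 and U266/s were -0.24 and -0.05 for the respiratory chain and -0.07 and -0.06 for the proteasome. For the heat shock genes they were 0.21 and 0.02, and for the BH3-only genes -0.002 and 0.10.

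The microRNA processing machinery leaned the other way, with 12 of 20 genes lower in both lines (60%, against 27.3% of all genes), 2 higher and a median of -0.13. AGO4 (-0.34), AGO1 (-0.31), which carry the microRNA, and TUT7 (-0.29), which adds uridines to precursors, were among the widest, after LIN28A (-0.35). Of 22 genes of the IL6, STAT3 and PIM pathway, 10 were lower in both (45.5%) and 3 higher (13.6%), with a median of -0.12. On the arrays without melphalan the processing machinery had medians of 0.20 in U266/LR7 and -0.10 in U266/s. The IL6, STAT3 and PIM list had 0.10 and 0.09. The medians of these lists with melphalan were below the median SE of a single gene, and the lists are described by their counts alone.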

How the data were processed

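Total RNA was amplified with the Ambion WT Expression Kit and hybridised to Affymetrix arrays, per the labels' protocols. The deposited values are on a log2 scale and come from RMA, which corrects background, quantile-normalizes and summarises probes, run by the authors in Affymetrix Expression Console, per the submitters' processing notes; no version was named. Of 33297 transcript clusters, 19460 had 1 gene symbol, 1754 several and 12083 none in the platform annotation; 19429 were matched by gene ID to RefSeq. Keeping the cluster of highest mean for the 769 genes with more than 1 left 18417 genes, with no filter on low signal. Depth does not apply to arrays; their number limits the precision.

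The 4 melphalan arrays were fitted in R 4.3.3 with limma 3.58.1 (lmFit, eBayes with trend), with the cell line as a block and Benjamini-Hochberg adjustment over all genes; the pairing comes from the line in the labels. All 8 arrays gave the interaction of inhibitors with melphalan. The test was tested on simulated data. Named genes are the 10 largest called rises and falls of the same direction in both lines, the 3 largest interaction terms each way, the 3 largest differences of opposite sign between lines, the 4 widest members of described lists and a set of genes and targets of miR-221 and miR-222; further called genes were chosen after their values were seen. Members and lists were chosen with earlier results of these data known, and targets are those reported in the literature as remembered, not predicted sites. 1 further list was not reported here. ANGPTL2 and PAK1 are not represented among the genes tested. Alternatives varied the scaling, signal filter, arrays in the fit, block, prior and cluster choice. Mature strands and promoters come from RefSeq tables on GRCh38.p14, with Python 3.11.15, pandas 2.3.3 and matplotlib 3.10.9 for tables and plots.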

Additional observations from a re-analysis of the deposited data

Results flagged for a closer look

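The inhibitor difference with melphalan exceeded that without melphalan by a test of the interaction (limma, 8 arrays) for 4 small nucleolar RNAs: 1.98 for SNORD116-1, 1.76 for SNORA22, 1.54 for SNORD116-18 and 1.51 for SNORD45A, on the log2 scale. Each of them was lower with the inhibitors than with the negative control without melphalan and higher with melphalan in both lines. In that comparison 2 things differ at once, the drug and the reference culture, which cannot be told apart. SNORD116-18 lay below the lower quartile of gene signal on every array.

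Some genes had differences of opposite sign in the 2 lines on the melphalan arrays, 1 array against 1, and these differences were not tested. C3AR1 was higher by 1.48 in U266/LR7 and -0.09 in U266/s, and SNORD12C by 1.35 in U266/LR7 with -0.83 in U266/s. ZNF578 was higher by 1.38 in U266/s with -0.46 in U266/LR7. SPRR2D was lower in U266/s (-1.78), as were ZNF729 (-1.47) and SNORD115-44 (-1.46), with 0.11, 0.06 and 0.11 in U266/LR7. These 3 values and the -0.09 of C3AR1 lay within the SD over all genes (0.183 in U266/LR7, 0.283 in U266/s). In U266/s ZNF578 went from 2.76 to 4.13, ZNF729 from 5.10 to 3.64 and SNORD115-44 from 5.48 to 4.02. Those signals were all below the lower quartile of gene signal on these arrays (6.02 and 6).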

How the results depend on the processing

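The count of called genes moved with the processing, from 103 as reported (65 higher, 38 lower; 63.1% higher) to 20 with each array centred on its median (18 higher, 2 lower; 90% higher), 22 with quantile normalization repeated (17 and 5; 77.3% higher), 127 with cyclic loess (66 and 61; 52% higher) and 123 over genes above the median signal (74 and 49). Over genes above the lower quartile it was 72 (50 and 22), with the median of a gene's clusters 69 (46 and 23), without an intensity trend 58 (40 and 18) and with a robust prior 83 (55 and 28). Without small RNA genes, a choice made after seeing the data, it was 128 (64 and 64). All 20 genes under median centring and all 22 under repeated quantile normalization were among the 103, as were 97 of the 127 under cyclic loess. The 8-array fits gave 1 gene (1 higher, 0 lower) with separate inhibitor effects and 8 (5 higher, 3 lower) with 1 common effect. With no replicate block, leaving out the pairing by line, 0 genes were called (0 higher, 0 lower), with 40 at an unadjusted p under 0.05. Leaving out either pair left no residual degree of freedom and so no test; SPRR2D then was 0.11 without the U266/s pair and -1.78 without the U266/LR7 pair. Under 1 common effect over both drug states SNORA22 (-0.34), SNORD45A (-0.23), SNORD116-18 (-0.026), SNORD13P3 (-0.021) and RPL34-DT (0.10) changed sign.

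The interaction count of 4 became 5 under median centring, 1 under repeated quantile normalization, 0 under cyclic loess, 12 over genes above the median signal and 1 without a trend. Leaving out 1 array at a time gave 15 to 215, the highest counts being 213 without the U266/s negative control and 215 without the U266/s inhibitor array. Each line and drug state had its own mean in the interaction fit. Leaving out either array of a pair therefore removed that whole pair from the inhibitor term. What set the size of these shifts was not tested. Single arrays per condition limit all of these results.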
